A study of Homo sapiens with 48 samples.

Results

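The subject here is the response of human cells that carry a wild-type UPF1 transgene to an siRNA against UPF1. The cells are Flp-In 293 T-REx, a human embryonic kidney line with one site for inserting a transgene, and the line called WT below stably expresses CLIP-tagged wild-type UPF1. The comparison has 6 of the study's 48 libraries: 3 from WT cells given 40 nM of a non-targeting siRNA (siNT) and 3 from WT cells given 40 nM of siRNA against UPF1 (siUPF1), each harvested 72 h after transfection. They were chosen by their column labels alone. The series' design text calls the 3 replicates biological, and it calls the target endogenous UPF1. The other 7 lines were treated in the same way: one with the CLIP tag and no UPF1 transgene (CLIP), and 6 that express a mutant UPF1 with the same tag, for which the labels give only names (F192E, I757R, E797R, LECY, FE-ER and IR-ER). All 48 libraries come from one parental line, the labels name one stable line per construct, and every line was grown with hygromycin B, so a difference between lines cannot be told apart from a difference between the stable lines themselves. An induction of the transgene is not given in the sources used here.

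UPF1 is an RNA helicase that binds mRNA and drives nonsense-mediated decay (NMD), the pathway that degrades transcripts on which translation stops early. It acts with UPF2, UPF3A and UPF3B, with the kinase SMG1 that phosphorylates it, and with SMG5 and SMG6, which bind the phosphorylated form or cut the RNA. Many unmutated RNAs are degraded by this route too, among them host transcripts of small nucleolar RNAs (snoRNAs), mRNAs with short upstream reading frames such as ATF4, and mRNAs of NMD factors themselves. An siRNA guides an Argonaute protein to matching RNA, and its seed, a short stretch near the 5′ end, can pair with the 3′ untranslated regions (3′UTRs) of other mRNAs, as that of a microRNA does.

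Libraries of the WT line held 6264973 to 8907892 expected counts, and 21386 to 22850 genes had counts in each. Levels below are in CPM, counts divided by scaled library totals. The level of UPF1 was checked first. UPF1 (chromosome 19, 18831938 to 18868236, plus strand, hg38) had 4238, 3624 and 4315 CPM in the siNT libraries and 4982, 4345 and 4218 CPM in the siUPF1 libraries, so the groups overlapped. Its log2 change was 0.15 (SE 0.11, adjusted p = 0.404). In CLIP cells UPF1 had 111, 97.2 and 109 CPM with siNT and 20.4, 21.3 and 19.5 CPM with siUPF1, a fall by 2.37 on the log2 scale. The 2 responses differed by 2.52 (adjusted p = 1.23e-13). Reads of the transgene and of the endogenous gene are summed at UPF1, so the level of the endogenous mRNA in WT cells cannot be read from these values. Genes listed as typical of 293 cells, such as VIM, INA and the keratins, were present in all 6 libraries (summed level of 11 genes 1578 to 1929 CPM). Of 10 fibroblast markers, 3 (COL1A2, DCN, FAP) were at 0 in all 6 libraries and the sum was 7.17 to 8.23 CPM with siNT and 8.61 to 12.6 with siUPF1. Of 10 blood cell markers, CD3E was at 0 and the sum was 5.23 to 9.85 CPM with siNT and 7.2 to 9.76 with siUPF1. Of 7 endothelial markers, CDH5 and ENG were at 0 and the sum was 0.493 to 0.683 CPM with siNT and 0.727 to 1.72 with siUPF1. Of 8 epithelial markers, KRT5, KRT14 and KRT7 were at 0, and EPCAM, at 69.5 to 83.3 CPM, made up most of a sum of 73.6 to 77.7 CPM with siNT and 71.7 to 85.8 with siUPF1. In these bulk samples fewer cells of a type and less RNA per cell cannot be told apart.

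Although UPF1 RNA stayed high, 1407 genes rose and 1165 fell in WT cells with siUPF1, which is 8.43% and 6.98% of the 16697 genes tested (15.4% called in all). By at least 1.5-fold 577 rose and 610 fell, 3.46% and 3.65% of the genes tested. At an unadjusted p under 0.05, 27% of genes were called. All 3 siUPF1 libraries lay above all 3 siNT libraries for 13.2% of genes and below them for 12.8%. The median log2 change of all genes was −0.01. With the replicate number as a block 2281 rose and 2075 fell, and with the 6 WT libraries fitted on their own 636 rose and 568 fell. The number called was 1722 without siNT replicate 2 and also 1722 without siUPF1 replicate 1, and 2029 to 2378 without any other single library. The CLIP line, with no UPF1 transgene, had 3017 rises (18.1%) and 2605 falls (15.6%).

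The gene with the smallest adjusted p was DSP, which encodes desmoplakin, a linker of intermediate filaments to desmosomes. It is named, like the other genes of this paragraph apart from PRDX3, CELF2 and EXOSC6, after its values were seen. DSP (chromosome 6, 7541575 to 7586717) had 873, 768 and 802 CPM with siNT and 207, 198 and 208 CPM with siUPF1. It fell by 1.99 on the log2 scale (SE 0.09, adjusted p = 1.84e-20), and the libraries of each group lay within a narrow range far from those of the other. PRDX3, a mitochondrial peroxiredoxin that removes hydrogen peroxide (chromosome 10, 119167703 to 119178833), had 90.3, 110 and 102 CPM with siNT and 14.8, 21 and 18.1 CPM with siUPF1 (log2 −2.50, SE 0.16, adjusted p = 9.46e-15). MSX1, a homeobox transcription factor, went from 27.1, 24.4 and 28.6 CPM to 5.15, 3.92 and 4.84 CPM (−2.51, SE 0.18). RAB12, a small GTPase of membrane traffic, went from 64.7, 67.1 and 66.1 CPM to 23.3, 21.9 and 22.7 CPM (−1.54, SE 0.09). The groups of these 4 genes were separated by gaps wider than either group. KLHL15, an adaptor of a ubiquitin ligase, fell from a mean of 529 to 166 CPM, CRKL, an adaptor of tyrosine kinase signalling, from 179 to 78.4 CPM, and CENPW, a kinetochore protein, from 25.6 to 6.19 CPM (3 libraries each). Among the rises, CELF2, a regulator of splicing (chromosome 10, 10798397 to 11336675), had the second smallest adjusted p, with 27.1, 24.7 and 27.2 CPM against 89, 85.5 and 81.8 CPM (1.70, SE 0.10, adjusted p = 7.39e-16). EXOSC6, a subunit of the RNA exosome, had the smallest, with 125, 116 and 115 CPM against 267, 258 and 261 CPM (1.14, SE 0.07, adjusted p = 3.08e-16). ST13, a cochaperone of HSP70, rose from a mean of 206 to 460 CPM, CALU, a calcium-binding protein of the secretory pathway, from 219 to 432 CPM, and SETD7, a lysine methyltransferase, from 85.7 to 183 CPM. All of the genes of this paragraph were called in the same direction in each of the 7 other lines.

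The 12 largest rises reached log2 changes of 1.70 to 2.80. SRPRA, the alpha subunit of the receptor for the signal recognition particle, was the most abundant, with 50.6, 39.7 and 40.1 CPM with siNT against 219, 162 and 137 CPM with siUPF1 (1.99, SE 0.16, adjusted p = 3.2e-12). PAQR6, a membrane progestin receptor, had 1.81, 1.02 and 2.15 CPM against 8.4, 7.83 and 10.3 CPM (2.43, SE 0.34). LMLN, a metallopeptidase, had 8.7, 7.28 and 8.86 CPM against 28.9, 25.2 and 29.1 CPM (1.75, SE 0.16). The siUPF1 libraries of these 3 genes were all well above the siNT libraries. ENPP5, of the nucleotide pyrophosphatase family, went from 4.6, 4.1 and 5.32 CPM to 18.3, 13.8 and 13.4 CPM (1.70, SE 0.24). G0S2, an inhibitor of the lipase ATGL, went from 1.48, 1.37 and 2.03 CPM to 5.56, 4.54 and 8.36 CPM (1.92, SE 0.35), and the metallothionein MT1X from 0.493, 0.569 and 0.886 CPM to 2.71, 4.54 and 3.51 CPM (2.42, SE 0.64). The other 6 were CELF2, MAMDC4 (1.94), the stathmin relative STMND1 (1.88), the phospholipase LIPH (1.75) and the processed pseudogenes AC005077.4 (2.80) and ST13P4, a copy of ST13 (1.74). Reads of both may be divided wrongly between copy and parent. In the plot of the largest changes AC005077.4 has the narrowest gap, with 0.253 to 0.657 CPM against 0.783 to 4.74 CPM.

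**Figure D1:**
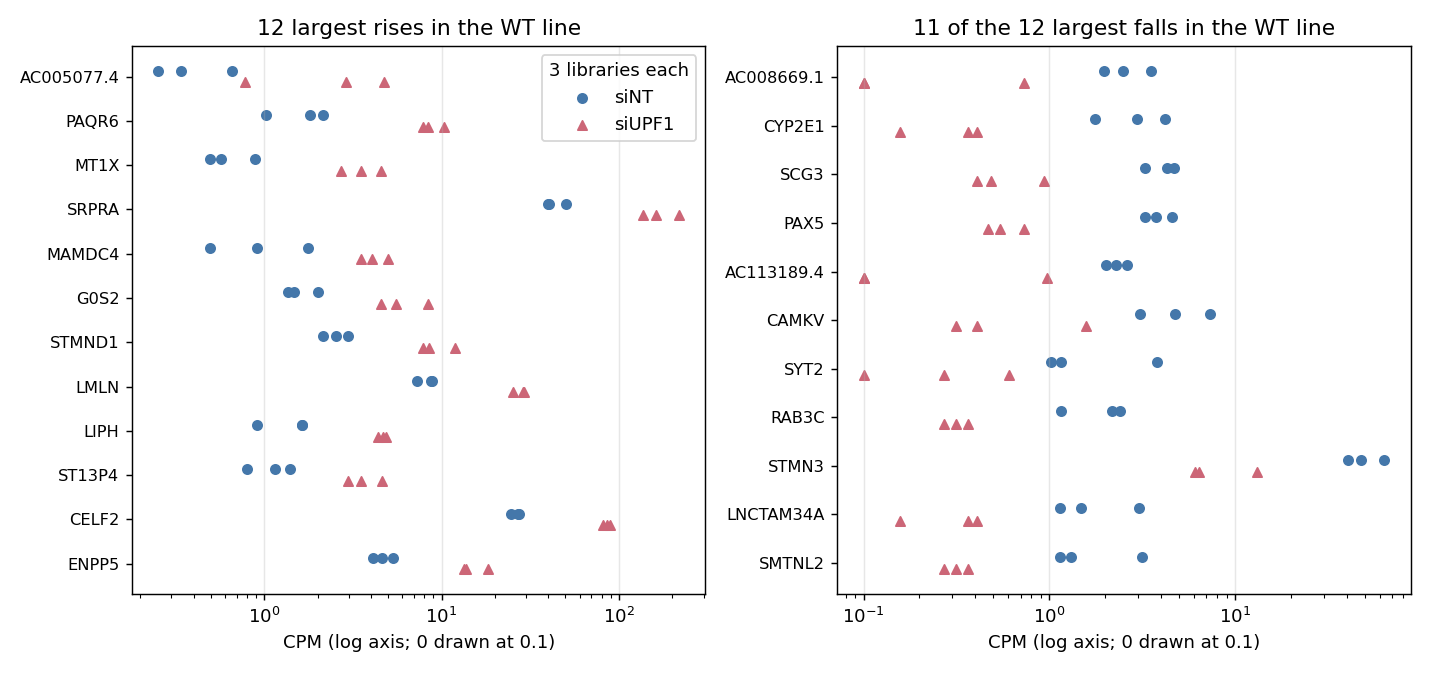
Levels in CPM (log axis) of the 12 largest rises (left) and 11 of the 12 largest falls (right) in the WT line, with 3 siNT libraries (circles) and 3 siUPF1 libraries (triangles) per gene; a level of 0 is drawn at 0.1. The 2 groups of libraries do not overlap for any of the 23 genes, which the rule for naming them required, and SRPRA, CELF2 and STMN3 are the genes with the highest levels.

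The 12 largest falls reached log2 changes of −2.52 to −3.26. STMN3, a stathmin that binds tubulin in neurons, was the most abundant, with 47.5, 40.6 and 63.7 CPM with siNT against 6.1, 6.42 and 13.1 CPM with siUPF1 (log2 −2.54, SE 0.28, adjusted p = 2.46e-08). SCG3, a secretogranin of secretory granules, had 3.28, 4.67 and 4.3 CPM against 0.407, 0.94 and 0.484 CPM (−2.76, SE 0.52). For both genes every siUPF1 library was below every siNT library, which the rule for naming them required. PAX5, a transcription factor best known in B cells, went from 3.28, 3.75 and 4.56 CPM to 0.542, 0.47 and 0.727 CPM (−2.69, SE 0.36). Others were CYP2E1, a cytochrome P450 (−3.19), CAMKV, a kinase-like protein of vesicles (−2.63), the synaptotagmin SYT2 (−2.62), the Rab GTPase RAB3C (−2.56), SMTNL2 (−2.52) and the lncRNAs AC008669.1 (−3.26), AC113189.4 (−2.65) and LNCTAM34A (−2.52). AC008669.1 and AC113189.4 were at 0 in siUPF1 replicates 1 and 2 and had 0.727 and 0.969 CPM in replicate 3. The call of AC008669.1 was lost without siNT replicate 2 or 3 or siUPF1 replicate 1 or 2, that of SYT2 without siNT replicate 3 or siUPF1 replicate 1 or 2, that of SMTNL2 without siNT replicate 3 or any siUPF1 library, and that of AC113189.4 without any one siNT library or siUPF1 replicate 1 or 2.

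The genes that changed in WT cells mostly also changed in the other lines. Each line has its own siNT libraries, so the comparisons share no samples. They do share one fit and its estimate of the spread of each gene, so calls in different lines are not independent. Of the 1407 rises 1085 (77.1%) were rises in CLIP as well, where 18.1% of all genes rose, and these made up 36% of the CLIP rises. Of the 1165 falls 885 (76.0%) were falls in CLIP, 34% of the CLIP falls. Of the WT rises, 75.7% also rose in F192E (against 11.8% of all genes), 68.6% in E797R (8.34%), 67.7% in I757R (8.13%), 68.6% in LECY (15.8%), 74.6% in FE-ER (10.1%) and 74.4% in IR-ER (9.21%). Of the WT falls, 76.0% also fell in F192E (against 10.1% of all genes), 70.4% in E797R (7.73%), 71.2% in I757R (7.79%), 71.7% in LECY (13.6%), 73.1% in FE-ER (8.52%) and 73.9% in IR-ER (7.8%). Each of these shares was above that of all genes in the same line, which is given in brackets. As a share of each mutant line's own rises the overlap ran from 36.5% in LECY to 70.2% in I757R. In all 7 other lines at once 591 rises (42.0%) and 534 falls (45.8%) were called. In none of the 7 were 87 rises (6.18%) and 75 falls (6.44%). The median log2 change of the WT rises was 0.53 in WT and 0.54 in CLIP, and that of the WT falls −0.60 and −0.62. DSP fell by 1.99 in WT and by 2.01 to 2.14 in the 7 other lines. CELF2 rose by 1.70 in WT and by 1.44 to 1.53 in the others, and EXOSC6 by 1.14 against 0.91 to 1.14. PRDX3 fell by 2.50 in WT and by 2.66 to 3.21 in the others.

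A direct test of the difference between the WT and CLIP responses called 668 genes (4% of those tested). In 540 of them (3.23%) the change was lower in WT, and in 128 (0.767%) it was higher. With the replicate block 1594 were called, 1044 lower and 550 higher, and with WT and CLIP alone 318 lower and 41 higher. Of the 3017 CLIP rises 503 (16.7%) differed from WT by this test; their median log2 change was 0.84 in CLIP and 0.01 in WT. Of the 2605 CLIP falls 115 (4.41%) differed, with medians of −0.78 and −0.04. These sets were chosen by a call in CLIP and a called difference from WT. A CLIP median away from 0 and a WT median well apart from it therefore follow largely from the choice. Over all 3017 CLIP rises the medians were 0.60 in CLIP and 0.28 in WT. Over all 2605 CLIP falls they were −0.64 and −0.34. Seen from WT, 59 of its 1407 rises (4.19%) and 83 of its 1165 falls (7.12%) differed from CLIP. In the scatter of the responses of both lines, most genes lie along the diagonal, and the called differences form a band of genes raised in CLIP and near 0 in WT.

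**Figure D2:**
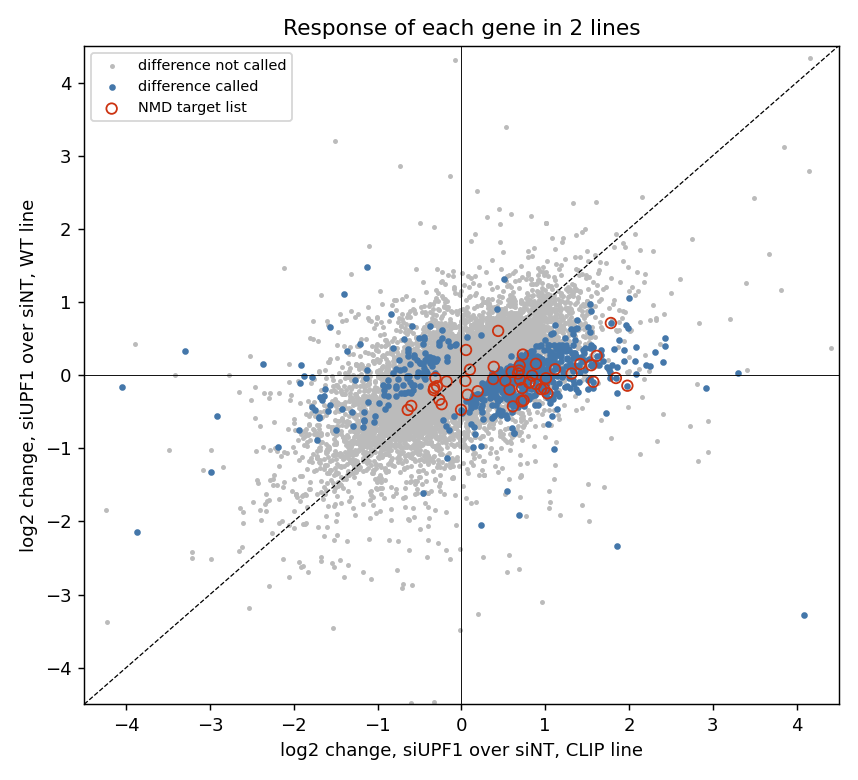
Log2 change of each tested gene in the CLIP line (x axis) and in the WT line (y axis), with genes whose difference between lines was called in blue and members of the NMD target list circled in red; the dashed line marks equal change, and 37 genes lie outside the axes, which end at 4.5. Of the 48 NMD targets, 31 rose in CLIP and 2 rose in WT, where 18.1% and 8.43% of all genes did.

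Established NMD targets were not raised as a group in WT cells. Of 48 tested 2 rose and 4 fell, with a median of −0.08 and 42 members short of the threshold, where 8.43% and 6.98% of all genes rose and fell. With the replicate block 4 rose and 8 fell, where 2281 and 2075 of the 16697 genes tested did. In CLIP 31 rose and 4 fell (median 0.69), where 18.1% and 15.6% of all genes did. By the test the WT response differed from that of CLIP in 23, lower in WT each time, as it was for 3.23% of all genes. RASSF1, a regulator of Hippo signalling with an NMD-sensitive transcript, had 16.8, 15.9 and 11.8 CPM with siNT and 17.8, 14.7 and 10.8 CPM with siUPF1 in WT. Its log2 change was −0.04 in WT and 1.84 in CLIP (difference −1.88, adjusted p = 1.38e-07). STC2, a secreted glycoprotein, had a WT change of −0.15 and a CLIP change of 1.98, and ATF4, the transcription factor of the integrated stress response, −0.01 and 0.85. These 3 are named after their values were seen. The 2 that rose were BAG1, a cochaperone of HSP70, with 72.7, 63.9 and 50.1 CPM against 107, 110 and 88.4 CPM (0.71, SE 0.17, adjusted p = 0.00323), and the membrane receptor ANTXR1 (0.60). BAG1 rose by 1.78 in CLIP, and the difference of −1.07 passed the test (adjusted p = 0.00466). The falls were RPL12 (−0.48), EIF4A2 (−0.48), DNAJB2 (−0.43) and TNFRSF10B (−0.40), of which EIF4A2 and DNAJB2 also differed from CLIP.

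Of 30 snoRNA host genes tested 1 rose and 1 fell in WT (median −0.13; with the block 2 and 3), where 8.43% of all genes rose and 6.98% fell. In CLIP 19 rose and 3 fell (median 0.51), where 18.1% and 15.6% of all genes did. The WT response differed from that of CLIP by the test in 15, lower in WT each time, as it was for 3.23% of all genes. SNHG7 had 34.8, 39.4 and 38.3 CPM with siNT and 32.5, 33.2 and 34.3 CPM with siUPF1, a log2 change of −0.17 that did not pass the test, and rose by 1.57 in CLIP. C6orf48, named after its values were seen, had 0.13 in WT and 2.25 in CLIP. SNHG20 rose by 0.39 in WT and by 0.92 in CLIP, and EIF4A2 fell by 0.48 in WT; the call of SNHG20 was lost in the fit of the WT libraries alone and without siNT replicate 1 or siUPF1 replicate 2. The difference of SNHG20 and that of EIF4A2 from CLIP were lost without WT siNT replicate 2 or 3 or siUPF1 replicate 1, without CLIP siNT replicate 1 or siUPF1 replicate 2 or 3, and for EIF4A2 without CLIP siNT replicate 3. Among 23 NMD factors 2 rose and 3 fell (median 0.04), where 8.43% and 6.98% of all genes did. In 6 the WT response was lower than that of CLIP by the test, as it was for 3.23% of all genes. Among these 6 were SMG1, SMG5, SMG6, SMG9 and UPF3B. SMG9, a partner of SMG1, had 88, 86.9 and 78.2 CPM with siNT and 72.8, 64.4 and 55 CPM with siUPF1. It fell by 0.40 in WT and rose by 0.58 in CLIP (difference −0.98, adjusted p = 0.000305). UPF3A rose by 0.31, FMR1 rose by 0.29, RUVBL1 fell by 0.39 and DHX34 fell by 0.54 with groups that overlapped, though each siUPF1 library was below the siNT library of the same number. The calls of SMG9, UPF3A and DHX34 were lost in the fit of the WT libraries alone and without siNT replicate 1 or 2 or siUPF1 replicate 3, that of UPF3A also without siUPF1 replicate 1 and the other 2 without siUPF1 replicate 2. The number of factors called was 1 with the WT libraries alone and 1 without siNT replicate 1. It was 2 without siNT replicate 2, siUPF1 replicate 2 or siUPF1 replicate 3. Of 15 genes of the exon junction complex, the mark that splicing leaves on mRNA, 0 were called by edgeR, in the fit with the block, by DESeq2 or at an unadjusted p under 0.05; RNPS1 had a log2 change of 0.11 and SRRM1 of 0.07.

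Between the WT response and the mean response of the 6 mutant lines 6 genes differed (0.0359% of those tested), all lower in WT. The mean joins lines as unlike as E797R, with 1392 rises, and LECY, with 2645. No mutant line was tested against WT singly, so this count does not show how far each one differs. With the replicate block 36 were called, 33 lower and 3 higher, and by DESeq2 15 lower and 1 higher. At an unadjusted p under 0.05, 424 were lower and 237 higher. SMG1 had the smallest adjusted p, with 370, 383 and 334 CPM with siNT and 400.3, 430 and 363 CPM with siUPF1 in WT, groups that overlapped although the siUPF1 library was the higher of each same-numbered pair. Its log2 change was 0.14 in WT, 0.17 in E797R, 0.56 in I757R and IR-ER, 0.82 in FE-ER, 1.11 in F192E, 1.56 in LECY and 1.55 in CLIP, and the difference from the mutants was −0.66 (SE 0.09, adjusted p = 0.000327). ZFAND2A, a stress-induced zinc finger protein, changed by −0.24 in WT, by −0.27 in E797R, by 2.14 in LECY and by 1.86 in CLIP (difference from the mutants −0.84, adjusted p = 0.0213). The lncRNA EPB41L4A-AS1, a snoRNA host, had −0.19 in WT and −0.07 to 1.64 in the mutants (difference −0.81), and SNHG7 had −0.17 and −0.12 to 1.39 (difference −0.67). PARP6 (difference −0.55) and TBRG1 (difference −0.51, named outside the rule) were the others. In the map of responses over 8 lines, which holds all of these genes but TBRG1, E797R is the mutant closest to WT and LECY the farthest for each. Without siNT replicate 2 or siUPF1 replicate 2, 1 gene was left, and without siUPF1 replicate 3 there were 3. Of the 5 named by the rule, the call of SMG1 held without each WT library.

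**Figure D3:**
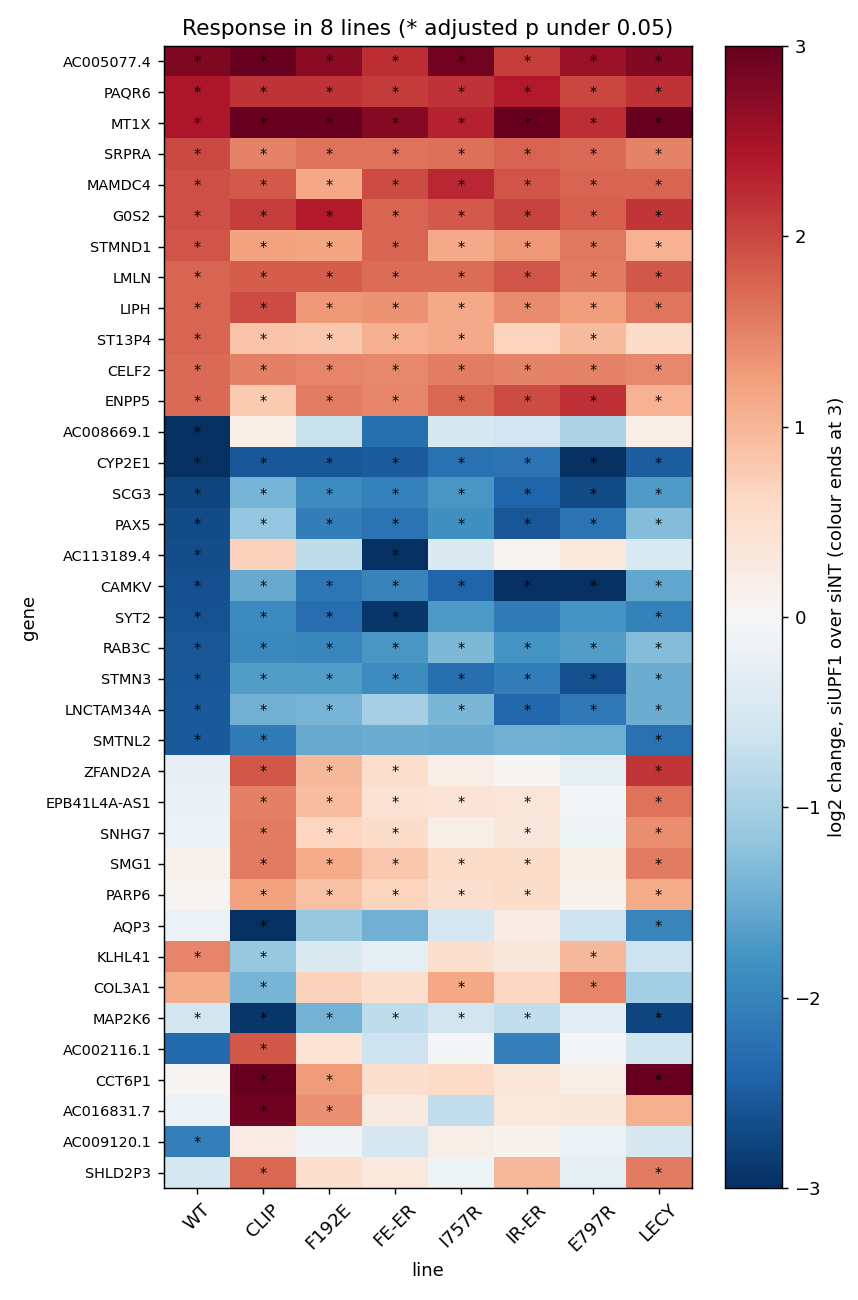
Log2 change with siUPF1 over siNT (colour, ending at 3) in 8 lines (columns) for the 12 largest rises and 11 of the 12 largest falls of the WT line, 5 of the genes that differ from the mutant lines and the largest differences from the CLIP line; stars mark an adjusted p under 0.05. The first 23 rows keep 1 colour across lines apart from AC008669.1 and AC113189.4, while the lower rows change from line to line.

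For some genes the 2 lines moved in opposite directions. Of the 1165 WT falls 21 rose in CLIP, where 18.1% of all genes rose. Of the 1407 WT rises 6 fell in CLIP, where 15.6% of all genes fell. The difference itself was called each time, which calls in opposite directions made nearly certain. CERS1, a ceramide synthase, had 39.6, 31.7 and 29 CPM with siNT and 23.6, 20.7 and 22 CPM with siUPF1 in WT (log2 −0.59, SE 0.12, adjusted p = 0.000345) and rose by 0.55 in CLIP. PDRG1 had 26.1, 26.1 and 22.9 CPM against 18.2, 19.4 and 16.8 CPM (−0.47, SE 0.13) and rose by 1.14 in CLIP. DNAJB2, a cochaperone of HSP70, fell by 0.43 in WT and rose by 0.61 in CLIP. For these 3 genes, named after their values were seen, each siUPF1 library was below each siNT library in WT, as for 12.8% of all genes. The span of CERS1 (chromosome 19, 18868545 to 18896727) lies next to that of UPF1, which ends at 18868236. LUC7L, a splicing factor, fell by 0.36 and rose by 0.44, with its WT call lost in the fit of the WT libraries alone and without any one of the 6 WT libraries. In the other direction MSMO1, an enzyme of cholesterol synthesis also named after its values were seen, rose by 0.50 in WT and fell by 0.45 in CLIP, and KLHL41 rose by 1.47 and fell by 1.13. Without siNT replicate 2 the WT call of KLHL41 was lost.

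The 5 largest differences upwards from CLIP to WT were in AQP3, KLHL41, UPF1, COL3A1 and MAP2K6. MAP2K6, a kinase that activates p38, had 40.9, 46.1 and 36.6 CPM with siNT and 23.9, 29.1 and 30.9 CPM with siUPF1 in WT. It fell by 0.56 in WT (SE 0.17, adjusted p = 0.0165) and by 2.92 in CLIP (difference 2.36, adjusted p = 2.42e-08), with −0.35 in E797R and −2.75 in LECY; its WT call was lost without siNT replicate 2 or siUPF1 replicate 1. FADS2, a fatty acid desaturase, had 45.8, 27.2 and 49.5 CPM against 9.08, 6.11 and 12.1 CPM, a fall by 2.14 where CLIP fell by 3.87 (difference 1.73, adjusted p = 0.0111). The difference of FADS2, and that of COL3A1 below, was lost without siUPF1 replicate 3 of WT. The water channel AQP3 was at 0.821 to 1.39 CPM with siNT and 0.813 to 1.41 with siUPF1, so the groups overlapped, and it fell by 4.05 in CLIP. COL3A1, a collagen on the fibroblast list, had 1.48 to 1.82 CPM with siNT and 1.72 to 5.57 with siUPF1 (1.10, adjusted p = 0.069; with the block 1.03 and adjusted p = 0.0141) and fell by 1.40 in CLIP. The pseudogene CCT6P1 had 2.66 to 3.75 CPM with siNT and 2.85 to 3.92 with siUPF1 and rose by 3.30 in CLIP, with reads that may be divided wrongly between it and its parent. AC002116.1, AC016831.7, AC009120.1 and SHLD2P3, all under 5 CPM in WT, were the other 4 of the largest differences downwards. The difference of AC016831.7 was lost without WT siNT replicate 1, those of AC009120.1 and SHLD2P3 without WT siNT replicate 2 or 3 or siUPF1 replicate 1 or 2, and that of AC002116.1 without WT siNT replicate 1 or 3 or siUPF1 replicate 2 or 3; the last 3 were also lost without some CLIP libraries.

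For other pathways the counts are to be read against all genes, of which 8.43% rose and 6.98% fell in WT and 18.1% and 15.6% in CLIP. Here and below, counts with the block stand beside 2281 rises and 2075 falls among all 16697 genes. Counts at an unadjusted p under 0.05 stand beside 2361 and 2140. With the WT libraries alone 636 rises and 568 falls were called among 14599 genes. For the unfolded protein response, which raises chaperones and degradation factors of the endoplasmic reticulum, 6 of 29 members rose and 0 fell (median 0.22; 25 of 29 above 0), and in CLIP 10 rose and 0 fell (median 0.19). With the block 10 rose, by DESeq2 6 rose and 0 fell, and at an unadjusted p under 0.05 10 rose and 0 fell. CREB3L2, a membrane-bound transcription factor cleaved in this response, had 36.8, 41.4 and 47.8 CPM with siNT and 146, 117 and 132 CPM with siUPF1 (1.65, SE 0.18, adjusted p = 1.6e-08). HYOU1, a chaperone, had 216, 166 and 158 CPM against 383, 295 and 295 CPM (0.85, SE 0.12, adjusted p = 1.6e-06). Both had groups that did not overlap, with siUPF1 above as for 13.2% of all genes, and both rose in all 7 other lines. SEC24D, of the vesicle coat COPII, rose by 0.82 and the cochaperone DNAJB9 by 0.81. Of the 37 autophagy and lysosome genes 9 rose and 1 fell in WT (median 0.19; with the block 15 and 2) and 20 and 2 in CLIP. MCOLN1, a calcium channel of the lysosome, rose from 8.54, 7.4 and 6.33 CPM to 21.4, 19.1 and 11.9 CPM (1.24, SE 0.24), the lysosomal galactosidase GLA by 0.96, and the autophagy factors ATG2A and ATG9A by 0.96 and 0.92; ATG13, named after its values were seen, fell by 0.82. The 42 ATF4 stress response genes had 1 rise and 3 falls in WT (median −0.07; with the block 4 and 5), for the falls near the share of all genes, and 19 and 5 in CLIP (median 0.61). SLC7A5, an amino acid transporter, rose by 0.59 in WT and by 1.53 in CLIP (difference −0.95, adjusted p = 0.000933), while PSAT1 of serine synthesis fell by 0.85 and the tRNA synthetases NARS and WARS by 0.72 and 0.36.

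**Figure D4:**
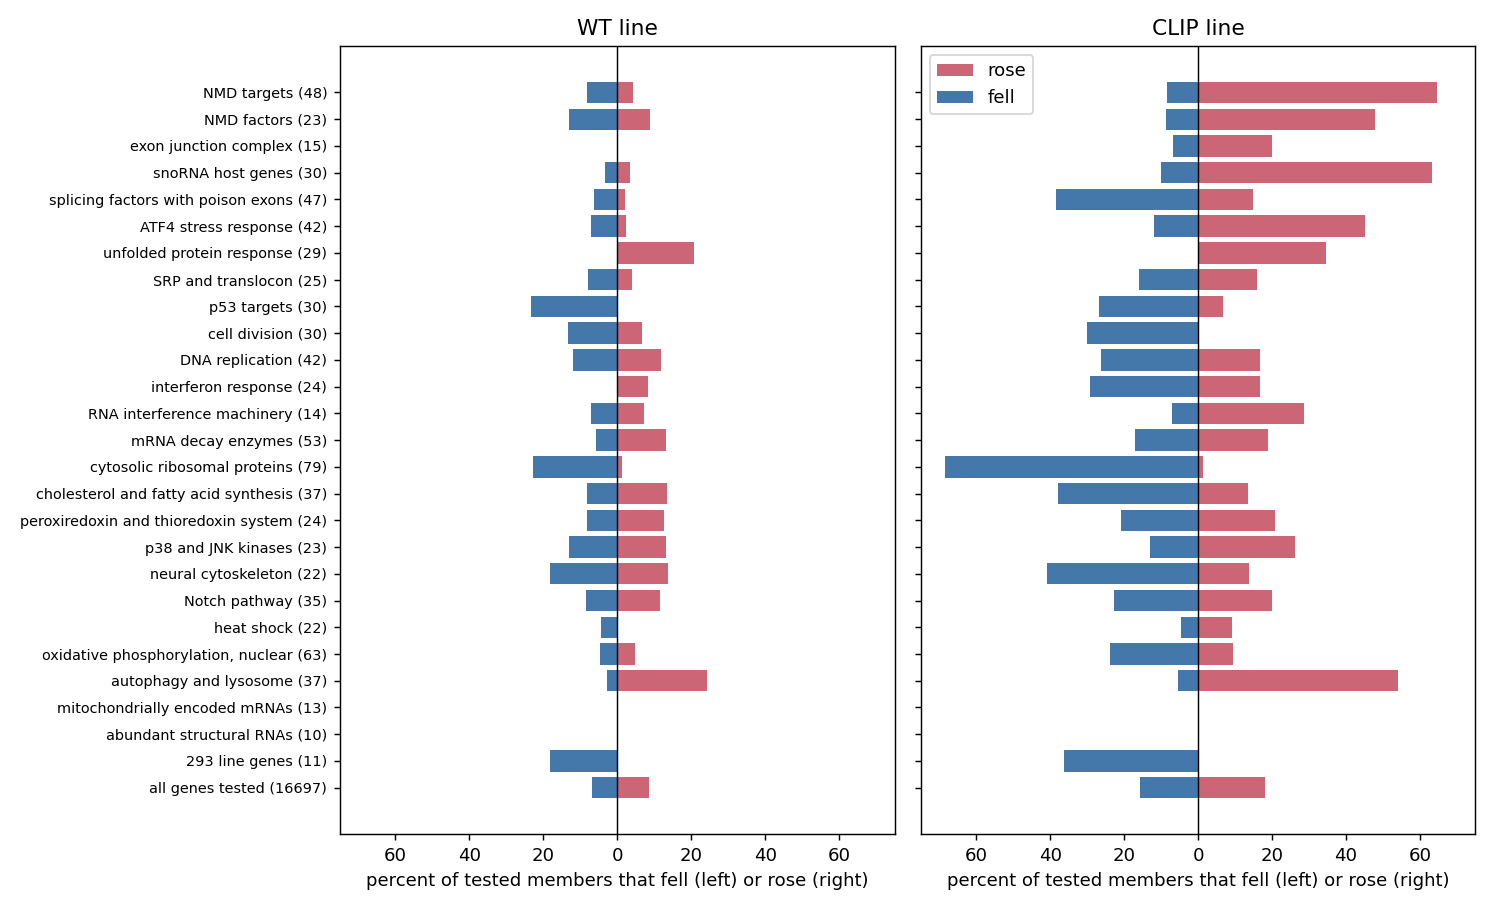
Percent of tested members of each list (number in brackets) that fell (bars to the left) or rose (bars to the right) with siUPF1 in the WT line and in the CLIP line, with all genes tested in the lowest row; lists with fewer than 10 tested members are left out. NMD targets, NMD factors, snoRNA host genes and ATF4 stress response genes have longer bars to the right in CLIP than in WT, while bars of the unfolded protein response and of autophagy and lysosome genes point to the right in both lines.

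Of 79 cytosolic ribosomal protein genes 18 fell and 1 rose (median −0.18), where 6.98% of all genes fell. In CLIP 54 fell and 1 rose (median −0.30), where 15.6% of all genes fell and 18.1% rose. With the block 35 fell, with the WT libraries alone 7, and without siUPF1 replicate 1 or siNT replicate 3, 11 and 12. RPS24 went from 654, 737 and 774 CPM to 403, 496 and 518 CPM (−0.61, SE 0.10, adjusted p = 3.03e-05), and RPS23 fell by 0.58. The member that rose was RPLP0, the stalk protein of the large subunit, from 472, 381 and 527 CPM to 921, 817 and 939 CPM (0.96, SE 0.17, adjusted p = 7.45e-05); it rose in all 8 lines. The summed level of the 79 genes was 48630 to 53930 CPM with siNT and 42140 to 47290 CPM with siUPF1, so the groups did not overlap. Of the 30 p53 targets 0 rose and 7 fell by edgeR and by DESeq2 (median −0.24). At an unadjusted p under 0.05, 1 rose and 13 fell. In CLIP 2 rose and 8 fell, where 18.1% and 15.6% of all genes did. With the block 2 rose and 13 fell, and with the WT libraries alone 2 fell. EDA2R, a receptor of the tumour necrosis factor family, fell by 1.54, TP53INP1 by 1.10, PLK3 by 0.64 and RRM2B by 0.48. The call of PLK3 was lost in the fit of the WT libraries alone, by DESeq2 (adjusted p = 0.069) and without siNT replicate 1 or 2 or siUPF1 replicate 1 or 2, and that of RRM2B in the fit of the WT libraries alone.

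In the remaining pathways of RNA and protein handling both directions occurred, and apart from the rises of mRNA decay enzymes the shares were near or below those of all genes (8.43% rose and 6.98% fell). Among 53 mRNA decay enzymes 7 rose and 3 fell (median 0.02; with the block 12 and 7): EXOSC6 and EXOSC5 of the exosome rose by 1.14 and 0.73, and CNOT7 and CNOT6, deadenylases of the CCR4-NOT complex, fell by 0.74 and 0.64. The call of CNOT7 was lost without siNT replicate 2 or siUPF1 replicate 1 or 3, and without siUPF1 replicate 1 the list had 3 rises and 2 falls. Of 47 splicing factors 1 rose and 3 fell (median −0.09; with the block 2 and 10). RBM3, a cold-induced RNA-binding protein, had 278, 336 and 215 CPM against 103, 116 and 78.8 CPM (−1.48, SE 0.25), LUC7L3 fell by 0.97, and SRSF8 rose by 0.33 with groups that overlapped but a higher siUPF1 library in each pair, a call lost without siNT replicate 2 or 3 or siUPF1 replicate 1 or 2. In CLIP 7 of the splicing factors rose and 18 fell, where 18.1% and 15.6% of all genes did. Of 14 genes of RNA interference AGO1 rose by 0.54 and TNRC6C fell by 0.60 (with the block 4 rose and 1 fell), and the summed level of the 14 was 2829, 2717 and 2363 CPM with siNT and 3217, 3022 and 2684 CPM with siUPF1, higher in each same-numbered pair. Of 25 genes of the signal recognition particle and translocon SRPRA rose and SEC61A2 (−0.78) and SSR4 (−0.39) fell, with the block 4 and 5; the call of SSR4 was lost without siNT replicate 3 or siUPF1 replicate 1 or 2. In the heat shock list of 22 FKBP4 was the only call, a fall by 0.51 (with the block 1 rose and 2 fell), and of 63 nuclear genes of oxidative phosphorylation 3 rose and 3 fell, with the block 4 and 6. NDUFB9 fell by 0.66, NDUFB10 rose by 0.56, and the rises of ATP5F1D (0.43) and UQCRC1 (0.39) were lost without siNT replicate 2 or siUPF1 replicate 1, where the list had 1 rise and 1 fall.

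Metabolic and signalling lists had a few large changes each, and their counts stand beside 8.43% of all genes that rose and 6.98% that fell in WT (18.1% and 15.6% in CLIP). In cholesterol and fatty acid synthesis 5 of 37 rose and 3 fell (median 0.09; with the block 9 and 3), where in CLIP 5 rose and 14 fell; besides FADS2, its neighbour FADS1 fell by 1.05 and PMVK of the mevalonate pathway by 0.90, while SCAP, which escorts SREBP transcription factors, rose by 1.08. Without siNT replicate 2 the list had 1 rise and without siUPF1 replicate 1 it had 2. In the peroxiredoxin and thioredoxin system 3 of 24 rose and 2 fell (with the block 5 and 4). PRDX3 had the largest change and PRDX2 fell by 0.47, less than in CLIP by the test (difference 0.44, adjusted p = 0.0327), while PRDX1 rose by 0.62 and TXNRD2 by 0.46. The call of PRDX1 was lost without siUPF1 replicate 2, and those of TXNRD2 and of the PRDX2 difference in the fits of the compared lines alone and without siNT replicate 2 or 3 or siUPF1 replicate 1, the PRDX2 difference also without siUPF1 replicate 3 of WT or any of 4 CLIP libraries (siNT replicates 1 and 3, siUPF1 replicates 2 and 3). Of 35 Notch pathway genes 4 rose and 3 fell (with the block 5 and 6). The ligand JAG1 had 44.5, 45.4 and 51.8 CPM against 17.2, 18.6 and 18.9 CPM (−1.37, SE 0.11, adjusted p = 4.68e-12), NCSTN of the gamma-secretase rose by 1.10, PSENEN of the same enzyme fell by 0.49 and NRARP rose by 0.44 with groups that overlapped but a higher siUPF1 library in each pair; the calls of PSENEN and NRARP were lost in the fit of the WT libraries alone and without siUPF1 replicate 3, that of PSENEN also without siNT replicate 3, and that of NRARP without any other library but siNT replicate 3. Without siNT replicate 3 or siUPF1 replicate 1 the list had 4 calls. Of 23 p38 and JNK kinases 3 rose and 3 fell (with the block 7 and 4): MAPK11 fell by 1.44, MAP3K7 by 0.66 and MAP2K6 by 0.56, and MAP3K5 rose by 0.48. Of 22 neural cytoskeleton genes 3 rose and 4 fell (with the block 7 and 6), with CRMP1 at −1.39 and TUBA1A at 0.79 beside STMN3 and STMND1. The call of MAPK11 and that of CRMP1 were lost without siNT replicate 3, and that of TUBA1A without siNT replicate 2, where the list had 1 rise and 2 falls.

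Genes of the cell cycle moved both ways, where 8.43% of all genes rose and 6.98% fell. Of 42 DNA replication genes 5 rose and 5 fell (with the block 6 and 12, and without siNT replicate 2, 2 and 4): POLD2 and POLD1 of polymerase delta rose by 1.07 and 1.01, and ORC5 of the origin recognition complex and PRIM1 of primase fell by 0.89 and 0.57. Of 30 cell division genes 2 rose and 4 fell (with the block 3 and 7); the spindle proteins HMMR and KIF23 fell by 0.95 and 0.67, and TTK and KIF20A rose by 0.52 and 0.43. The call of TTK was lost without siNT replicate 1 or 3 or siUPF1 replicate 2. Of 24 interferon response genes STAT2 (0.58) and USP18 (0.44) rose and 0 fell (0 by DESeq2, and 1 at an unadjusted p under 0.05), both lost in the fit of the WT libraries alone, STAT2 also without siNT replicate 3 and USP18 without siNT replicate 2 or siUPF1 replicate 1; with the block 2 rose and 2 fell. Among 11 genes typical of the 293 line INA (−0.48) and CDH2 (−0.22) fell, and with the block 2 rose and 4 fell. The calls of both were lost without siNT replicate 2, that of INA also without siUPF1 replicate 3 and that of CDH2 without siUPF1 replicate 1 or 2. Of the 13 mitochondrially encoded mRNAs and the 10 abundant structural RNAs tested 0 were called by edgeR or DESeq2, and 1 mitochondrial mRNA was above at an unadjusted p under 0.05. Without the expression filter 4 and 2 of them rose. The 13 had log2 changes of 0.04 to 0.43, and their summed level was 28970, 22850 and 30680 CPM with siNT and 32530, 28040 and 34600 CPM with siUPF1, so the groups overlapped and the siUPF1 library was higher in each same-numbered pair.

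The called genes also differed in features that had no part in the calls. Coding genes were 96.7% of the WT rises and 90.9% of the falls, against 79.8% of all genes tested. The median GC content of the transcripts was 52.5% for rises, 45.1% for falls and 49.4% for all genes, and the median 3′UTR was 1067, 1391 and 996 bases long. The share of coding genes with a transcript annotated as an NMD substrate in GENCODE 29 was 45.1% of the WT rises and 42.2% of all genes. It was 50.3% of the CLIP rises and 59.3% of the CLIP rises that were lower in WT by the test. Median levels were 49.2 CPM for rises and 29.3 for falls against 19.7 for all genes, so the calls favour genes with more counts, and these shares are given with no test.

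Because 3′UTRs are where short RNAs pair, the 3′UTRs of 12762 coding genes were searched for 7-letter strings, a search added after the WT changes were seen and given as a description only. The 16186 strings with at least 50 copies were ranked by their excess in the 3′UTRs of called genes over the number that the bases searched would hold at the frequency in all genes, and overlapping top strings were joined to 8 letters. In the falls 4 of the first 6 strings formed 2 sequences, AGAACATA and AGATCATA, and in the rises the first 2 formed AGCAACCA. The sense strand of the mRNA was searched. GAACATA was 2.36 times as frequent per base in the 3′UTRs of genes that fell as in all. AGCAACC was 2.09 times as frequent in those of genes that rose. Other orders of the same letters had medians of 1.06 and 1.04. Both strings ranked first by their excess in these same genes, so ratios above those medians follow from the choice. CCCACCC and related strings ranked next among the rises, but at 1.35 times, with 1.30 for other orders of the same letters, they were not followed further. The sites below are shown to give the strings in their surroundings, with the 8 shared letters in capitals (hg38, GENCODE 29 transcripts, 5′ to 3′ on the gene's strand). They lie in genes with large changes, apart from UPF1, the target of the siRNA, whose level in WT was not called. Of these genes WDR18, named after its values were seen, had 24.3, 19.9 and 25.9 CPM with siNT and 76.7, 65.8 and 62.0 CPM with siUPF1 (log2 1.55, SE 0.17).

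PRDX3 3′UTR, chromosome 10, 119168225 to 119168246, minus strand: tttctacAGAACATAatttgcc
CENPW 3′UTR, chromosome 6, 126348493 to 126348514, plus strand: aagtcaaAGAACATAttcttga
UPF1 coding sequence, chromosome 19, 18852225 to 18852246, plus strand: cagtaccAGAACATAttcgggc
PRDX3 3′UTR, chromosome 10, 119168032 to 119168053, minus strand: ctaacaaAGATCATAattttca
KLHL15 3′UTR, chromosome X, 23984389 to 23984410, minus strand: ttttgagAGATCATAtgtttgt
ENPP5 3′UTR, chromosome 6, 46160486 to 46160507, minus strand: gaatagaAGCAACCAggcacca
CREB3L2 3′UTR, chromosome 7, 137879701 to 137879722, minus strand: tcctgctAGCAACCAcactgaa
WDR18 3′UTR, chromosome 19, 994388 to 994409, plus strand: gcctcccAGCAACCAgggcccg

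The strings were chosen for their excess in the genes called in WT, most of which were called in the other lines too, so the shares and the signs of the medians that follow were largely fixed by that choice. AGAACATA stood in the 3′UTR of 454 genes, of which 28.0% fell and 4.41% rose in WT, while of the 10528 genes without either of its 7-letter parts 5.97% fell and 11.1% rose. Their median log2 change was −0.18 in WT, −0.27 in CLIP and −0.15 to −0.24 in the mutant lines. Among genes with a 3′UTR of 1000 to 3000 bases, 30.6% of the 147 with the string fell, 16.7% of the 700 with a 7-letter part alone and 5.59% of the 3451 with neither. AGATCATA was in 312 genes, of which 22.4% fell (median −0.15 in WT and −0.18 in CLIP). AGCAACCA was in 293 genes, of which 22.9% rose and 2.73% fell, while 21.4% of the 1003 genes with a 7-letter part alone rose, and 9.07% of the 11466 with neither. Its median was 0.15 in both WT and CLIP and 0.12 to 0.19 in the mutants. Among genes with a 3′UTR of 1000 to 3000 bases, 21.4% of the 98 with AGCAACCA rose, 25.7% of the 397 with a part alone and 8.7% of the 3803 with neither, and the WT medians were 0.14, 0.17 and 0.00, so there the whole string was not above its parts. PRDX3 and CENPW hold both strings of the falls, CENPW within a 3′UTR of 119 bases. Of the 393 coding genes that rose in CLIP and were lower in WT by the test 8 (2.04%) held AGCAACCA, against 2.3% of all. DSP, MSX1, FADS2 and STMN3 held none of the 3 strings, nor their 7-letter parts, in the 3′UTR searched. UPF1 held AGAACATA once, in the coding sequence of both of its coding transcripts, and neither other string. Coding sequences of other genes were not searched, so how common such a copy is there is not known. The siRNA sequences are not given in the sources used here, so whether these letters match a strand of siUPF1 or siNT was not tested.

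**Figure D5:**
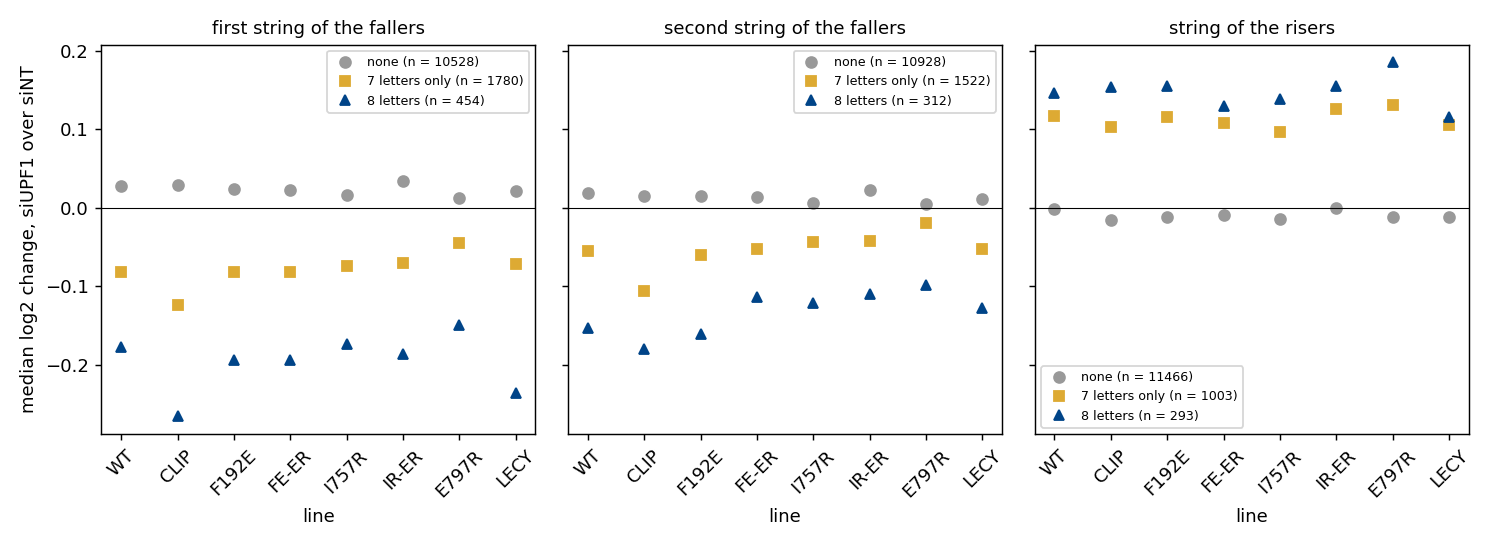
Median log2 change with siUPF1 over siNT in 8 lines for coding genes whose 3′UTR holds the whole 8-letter string (triangles), a 7-letter part without the whole (squares) or neither (circles), with the number of genes in brackets, for the 2 strings of genes that fell and the string of genes that rose. In each line the medians of the first 2 strings are below 0 and those of the third above 0, and over 3′UTRs of all lengths the whole string lies farther from 0 than its parts; the strings were chosen from the genes called in WT.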

How the data were processed

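The authors deposited RSEM expected counts (estimated counts that need not be whole) for 58870 genes in 48 libraries, and 9.16% of the deposited values were not whole. Per the submitters' processing notes, cutadapt, STAR, RSEM, DESeq2 and the build hg38 were used, with no versions or roles given. The annotation release and strand setting are not given in the sources used here, so reads of a gene and an antisense, overlapping or near-identical partner may be divided wrongly.

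Expected counts were rounded. All 48 libraries entered one model of 16 groups, a robust quasi-likelihood fit with TMM factors in edgeR 4.0.16 (R 4.3.3), so the 6 libraries described here share its estimate of the spread. Genes were kept by filterByExpr with a minimum count of 10, which left 16697. A gene was called at a Benjamini-Hochberg adjusted p under 0.05 over these genes; tests were two-sided, and every adjusted p is from edgeR's quasi-likelihood test unless another tool is named. The SE of a log2 change was derived from the F statistic (the change over the root of F). Levels in CPM are counts over TMM-scaled totals. Gene positions and types are those of GENCODE 29 (hg38), matched for 16667 genes. The same code was also run on data simulated from the means and spreads of the main fit. The means were averaged over both siRNAs within each line, and changes were then set in WT siUPF1. Of 100 genes set to change 1.5-fold 38 were called, and of 100 set to change 2-fold 71 were. Among the genes with no change set, 4 were called. The genes set to change were a far smaller share than the 15.4% called in the data, so these rates may differ from those of the data.

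The replicate numbers were taken to pair the libraries only in the alternative fit with a block, and the main fit was unpaired. The deviations of same-numbered siNT and siUPF1 libraries from their group means correlated across genes by 0.245, 0.273 and 0.39. Those of other pairs correlated by 0.00516 or less. Deviations from a group mean sum to 0, so positive values for same-numbered pairs by themselves lower those of other pairs. Values from a fit with the replicate number as a block are given where they move a count over 1.5-fold.

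The genes named are UPF1, the 12 largest rises and falls among called genes with a mean of at least 1 CPM and groups that did not overlap, up to 4 called members of each list with the largest changes (or the 2 most abundant members where none was called), and the 5 largest differences between lines in each direction; others are said to be chosen after their values were seen. A few genes that the rule names are not reported here. The members, lists and this rule were chosen with earlier results of these data known. The search for letters in 3′UTRs was added after the WT results were seen. Alternatives were the compared lines alone, the replicate block, DESeq2 1.42.0, RLE factors, no filter, a minimum count of 30, a 1.5-fold minimum and each library left out. Figures were drawn with matplotlib, and Python tables with pandas.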

Additional observations from a re-analysis of the deposited data

Results flagged for a closer look

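Differences between lines that passed edgeR's test of the difference itself (adjusted p under 0.05) were found for 23 of the named genes against CLIP and for 5 of them also against the mean of the mutant lines. The WT change was above that of CLIP for AQP3 (3.88), KLHL41 (2.60), UPF1 (2.52), COL3A1 (2.51), MAP2K6 (2.36), FADS2 (1.73) and PRDX2 (0.44). It was below that of CLIP for AC002116.1 (−4.19), CCT6P1 (−3.27), AC016831.7 (−3.10), AC009120.1 (−2.29), SHLD2P3 (−2.25), ZFAND2A (−2.10), SNHG7 (−1.74), EPB41L4A-AS1 (−1.70), SMG1 (−1.42), PARP6 (−1.12), BAG1 (−1.07), SMG9 (−0.98), SLC7A5 (−0.95), LUC7L (−0.80), SNHG20 (−0.53) and EIF4A2 (−0.47). Against the mean of the mutants it was below for ZFAND2A (−0.84), EPB41L4A-AS1 (−0.81), SNHG7 (−0.67), SMG1 (−0.66) and PARP6 (−0.55). All are differences of log2 changes. AQP3, COL3A1, KLHL41, CCT6P1, AC002116.1, AC016831.7, AC009120.1 and SHLD2P3 were under 6 CPM in every WT library. Groups of 3 libraries were not tested for single libraries that stand apart.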

How the results depend on the processing

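The number of genes called in WT (2572) was 1204 with the WT libraries alone, 4356 with the replicate block and 1187 with a 1.5-fold minimum. With a single WT library left out it was 1722 to 2378. The difference from CLIP (668) was called for 359 genes with the 2 lines alone and for 1594 with the replicate block, and for 503 to 760 with a library left out, those of CLIP being added after the data were seen. The difference from the mutants (6) was called for 36 with the replicate block, 43 with no expression filter, 16 by DESeq2, and 1 to 7 with a library left out. All 2572, 668 and 6 calls were kept with the block, and by DESeq2 2474, 647 and 6; without the filter 1806 of the 2572 were kept. The other alternatives (RLE factors, a minimum count of 30) kept each number within 1.5-fold.

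Of 153 single values (125 changes in WT and 28 differences between lines), 96 kept their direction and side of the threshold under every alternative run, 45 lost a call under at least 1, 3 gained one and 9 changed sign. The replicate block changed the call of COL3A1 and of no other of them. The 9 that changed sign were not called, and with a library left out ranged from −0.03 to 0.15 (SRRM1), −0.09 to 0.25 (MT-CO1), −0.14 to 0.37 (PDGFRA), −0.13 to 0.33 (CD68), −0.64 to 1.07 (HBA1), −1.47 to 0.14 (CDH1), −0.43 to 0.03 (AQP3), −0.10 to 0.15 (CCT6P1) and −0.87 to 0.38 (AC016831.7). DESeq2 gave no adjusted p for some low genes, which were left out of its counts. Of 23 lists with a call, the count moved over 1.5-fold upwards in 21 with the block and downwards in 13 with the WT libraries alone. The causes were not tested. The fit of the WT libraries alone had 6 libraries in place of 48 and kept 14599 genes in place of 16697. With 3 libraries a group and 6264973 to 8907892 counts a library, genes that were not called may still differ.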
